A study of Homo sapiens with 9 samples.

Results

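The histone genes of VCaP cells were examined after KMT2C was lowered by siRNA. Genes were taken by name (names that begin with H1-, H2A, H2B, H3-, H3C, H4- or H4C and continue in digits, capitals or hyphens) and by a protein-coding transcript type, which gave 91 of the 60612 genes in the table. VCaP is an established human prostate cancer cell line that carries the TMPRSS2-ERG fusion. Cells were transfected for 4 days with KMT2C siRNA 1, with KMT2C siRNA 2 or with a control siRNA, and each group had 3 RNA sequencing libraries. KMT2C encodes a histone H3 lysine 4 methyltransferase that acts mostly at enhancers. The labels give neither the siRNA sequences nor whether the replicates were separate cultures, so p-values measure the spread between these libraries, and that spread may be technical.

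Histones package DNA into nucleosomes, each made of the core histones H2A, H2B, H3 and H4, and the linker histone H1 binds between nucleosomes. Most core and linker histone genes are intronless, lie in clusters in many copies, and are transcribed in S phase while DNA is copied. Their mRNAs end in a conserved stem-loop in place of a poly(A) tail, and the stem-loop binding protein SLBP controls their processing and stability. Variant histones such as H2A.Z and the replacement H3 come from solitary genes with polyadenylated mRNAs and are made throughout the cell cycle. Of the 91 genes, 66 had a name of the clustered kind (H1-1 to H1-6, H2AC, H2BC, H3C and H4C), and the other 25 are called variant or solitary here, by name only, since some of them also lie beside other histone genes.

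The stem-loop is shown because it is the feature that sets the mRNAs of clustered histone genes apart. The letters GG, any 2 bases, CTTTT, any base, AG, any 2 bases and CC were searched on the transcript strand in the last 150 bases of protein-coding transcripts in GENCODE release 29. They were found in 13 of the 88 histone genes with such a transcript (14.8%), against 16 of all 19684 genes searched (0.0813%). Many histone models may end before the stem-loop. Others are much longer than the 150 bases searched, so that a stem-loop further from their end would be missed. The letters were not found in the long models of H2AC11, H2BC21, H2BC9, H2BC8, H4C9 and H3C10, but were in that of H2BC15. That match, at chr6:27865773-27865798, plus strand, lies at the annotated end of H2AC16, which exons of H2BC15 overlap. Whether the mRNAs measured here end at the stem-loop was not tested. In the sequences below, taken from GENCODE on GRCh38, the capitals mark the motif. H2AC18 lies at chr1:149842218-149842243, minus strand, H2BC4 at chr6:26123467-26123492, minus strand, and H4C8 at chr6:26285126-26285151, minus strand.
H2AC18: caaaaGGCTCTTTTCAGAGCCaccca
H2BC4: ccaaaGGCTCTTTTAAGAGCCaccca
H4C8: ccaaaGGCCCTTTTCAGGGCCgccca

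Library totals were 58462215 to 70726213 estimated counts. KMT2C itself had 1.54, 1.80 and 2.28 FPKM with siRNA 1, 1.72, 1.64 and 1.73 FPKM with siRNA 2, and 13.7, 12.1 and 12.9 FPKM in control cells, and its log2 fold change against control was -2.81 ± 0.13 (adjusted p = 4.56e-06) with siRNA 1 and -2.98 ± 0.13 (adjusted p = 8.76e-07) with siRNA 2. All 11 prostate luminal markers examined reached 1 FPKM in at least 3 libraries, and together they had 1030.0 to 1060.0 FPKM with siRNA 1, 1050.0 to 1070.0 FPKM with siRNA 2 and 1870.0 to 1950.0 FPKM in control cells. Of 4 basal epithelial markers only KRT14 did, and the 4 summed to 6.29 to 7.86 FPKM with siRNA 1, 0.848 to 0.953 FPKM with siRNA 2 and 2.38 to 2.65 FPKM in control cells. Of 7 fibroblast markers only LUM did, and the 7 summed to 0.691 to 0.930 FPKM with siRNA 1, 7.17 to 12.6 FPKM with siRNA 2 and 1.58 to 2.66 FPKM in control cells, with DCN, PDGFRB and THY1 near 0. Of 6 leukocyte markers only CD14 did, and the 6 summed to 1.58 to 1.95 FPKM with siRNA 1, 1.49 to 2.52 FPKM with siRNA 2 and 0.655 to 1.41 FPKM in control cells, with CD3E listed at the lowest value of the file. The series' design text calls the RNA retinal. None of 9 retinal markers reached that level, and the 9 summed to 0.850 to 1.05 FPKM with siRNA 1, 0.993 to 1.01 FPKM with siRNA 2 and 0.212 to 0.287 FPKM in control cells, most of it PDE6B and NRL, with CRX, RCVRN and GNAT1 listed at the lowest value. The 5 endothelial markers summed to 0.287 to 0.392 FPKM with siRNA 1, 0.0883 to 0.180 FPKM with siRNA 2 and 0.217 to 0.226 FPKM in control cells. Levels of these lists differed between the groups, and their part in the histone values was not tested. FPKM is fragments per kilobase of transcript scaled for depth, which allows levels of genes of different length to be compared. A gene was tested if it had at least 1 FPKM in at least 3 libraries, and it was called if the Benjamini-Hochberg adjusted p of edgeR's quasi-likelihood test over the 12830 genes tested was under 0.05. Log2 fold changes carry a standard error (SE) and levels a standard deviation (SD), with n = 3 per group. The labels do not say how RNA was selected for the libraries, so levels of mRNAs without a poly(A) tail may not be comparable with those of polyadenylated mRNAs.

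Variant genes made up most of the histone mRNA that was measured. Of the 91 genes, 41 were tested (31 clustered and 10 variant or solitary), 40 had counts but were under the filter, and 10 had no count in any library. The genes under the filter averaged at most 0.674 FPKM over the 9 libraries. The median level over the 9 libraries was 2.24 FPKM among the tested clustered genes and 49.4 FPKM among the tested variant or solitary genes, and 12 genes averaged at least 10 FPKM. The highest clustered genes were H1-2, which encodes a linker histone, and H2BC12, which encodes a core H2B, while most others lay under 10 FPKM. The tested clustered genes had a median of 193 estimated counts per library, so single genes were measured on few fragments.

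Summed over the 66 clustered genes, the level was 153, 147 and 130.4 FPKM with siRNA 1, 266, 269.5 and 266 FPKM with siRNA 2, and 196, 185 and 199.8 FPKM in control cells. The 3 groups did not overlap, with siRNA 1 lowest and siRNA 2 highest. Without H1-2 and H2BC12 the sum of the other 64 genes was 66.3 ± 2.46 FPKM with siRNA 1, 138 ± 5.14 FPKM with siRNA 2 and 86.9 ± 4.81 FPKM in control cells, in the same order. The variant or solitary genes together had 570.1, 526 and 499 FPKM with siRNA 1, 512, 505 and 485 FPKM with siRNA 2, and 623, 655 and 604 FPKM in control cells, so that both KMT2C siRNA groups lay below control. These sums are descriptions without a test. In such bulk samples, fewer cells in S phase and less RNA per cell cannot be told apart.

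**Figure D1:**
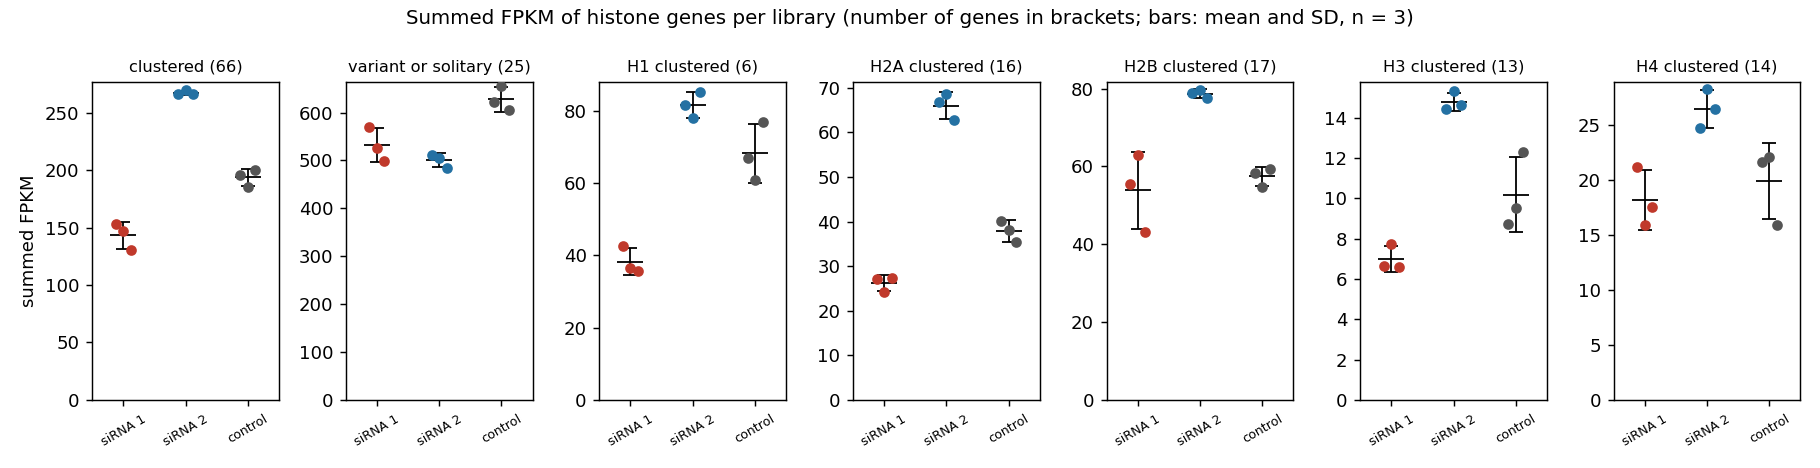
Summed FPKM per library (vertical axis) of the 66 clustered and 25 variant or solitary histone genes, and of the clustered genes of each histone family. Points are libraries and black bars the mean and SD of 3 libraries per group; the clustered sum averaged 143 FPKM with siRNA 1, 268 FPKM with siRNA 2 and 194 FPKM in control cells.

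By family, clustered H2A genes together had 26.2 ± 1.76 FPKM with siRNA 1, 66.0 ± 3.00 FPKM with siRNA 2 and 37.9 ± 2.40 FPKM in control cells (SD, n = 3). Clustered H1 genes had 38.2 ± 3.69 FPKM with siRNA 1, 81.5 ± 3.72 FPKM with siRNA 2 and 68.2 ± 8.07 FPKM in control cells, and clustered H3 genes 6.99 ± 0.663 FPKM with siRNA 1, 14.8 ± 0.455 FPKM with siRNA 2 and 10.2 ± 1.87 FPKM in control cells. In these families the libraries of the 3 groups did not overlap. Clustered H2B genes had 53.9 ± 9.91 FPKM with siRNA 1, 78.7 ± 1.08 FPKM with siRNA 2 and 57.5 ± 2.47 FPKM in control cells, and clustered H4 genes 18.2 ± 2.72 FPKM with siRNA 1, 26.4 ± 1.73 FPKM with siRNA 2 and 19.9 ± 3.45 FPKM in control cells. For H2B and H4 the siRNA 2 libraries lay above all others, while siRNA 1 and control libraries overlapped.

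The comparison of each siRNA with control asks which histone genes change when KMT2C is lowered. With siRNA 1, 9 of the 31 tested clustered genes fell and none rose. With siRNA 2, 17 of them rose and only H2BC9 fell. At an unadjusted p under 0.05 in edgeR, 0 clustered genes were higher and 10 lower with siRNA 1. The shares of all tested genes at that threshold were not counted and are at least those at adjusted p given below. DESeq2 called 0 clustered genes higher at adjusted p under 0.05, where it called 2836 of all 12830 tested genes higher. Over all 41 tested histone genes, 1 rose and 14 fell with siRNA 1 (3 and 11 under upper-quartile scaling), where 21.2% of all tested genes rose and 20.5% fell (41.7% in all). With siRNA 2, 18 rose and 5 fell, where 24.4% of all tested genes rose and 24.9% fell (49.3% in all). The median log2 fold change of the clustered genes was -0.22 with siRNA 1 and 0.83 with siRNA 2, beside 0.01 and 0.02 over all tested genes. The 2 comparisons share the control libraries. Of the tested genes, H1-4, H2BC14 and H2BC15 reached 1 FPKM in the siRNA 2 group only, so they entered the test through the group in which they were high. Without these 3 genes, 14 of 28 clustered genes rose and 1 fell with siRNA 2. H2AC11, H2BC8 and H2BC17 reached 1 FPKM in 5, 5 and 4 libraries, every siRNA 2 library among them. They passed the filter only with the siRNA 2 libraries counted and remain among the 14, and no count without them was made.

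The direct comparison of siRNA 1 with siRNA 2 asks where the KMT2C siRNAs differ, and it rests on the means of those 2 groups. Of the 31 clustered genes, 19 were lower with siRNA 1 than with siRNA 2, only H2BC9 was higher, and 11 were not called. The 19 include H1-4, H2BC14 and H2BC15, tested through the siRNA 2 group only. They also include H2AC11, H2BC8 and H2BC17, which passed the filter only with the siRNA 2 libraries counted. The median log2 difference of the 31 genes was -1.02, against 0.00 over all tested genes. No count or median without the genes that depended on siRNA 2 was made. Over all 41 tested histone genes 20 were lower and 2 were higher with siRNA 1, where 18.9% of all tested genes were lower and 20.6% higher (39.5% in all). The difference in KMT2C itself did not pass this test (0.17 ± 0.12, adjusted p = 0.308).

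**Figure D2:**
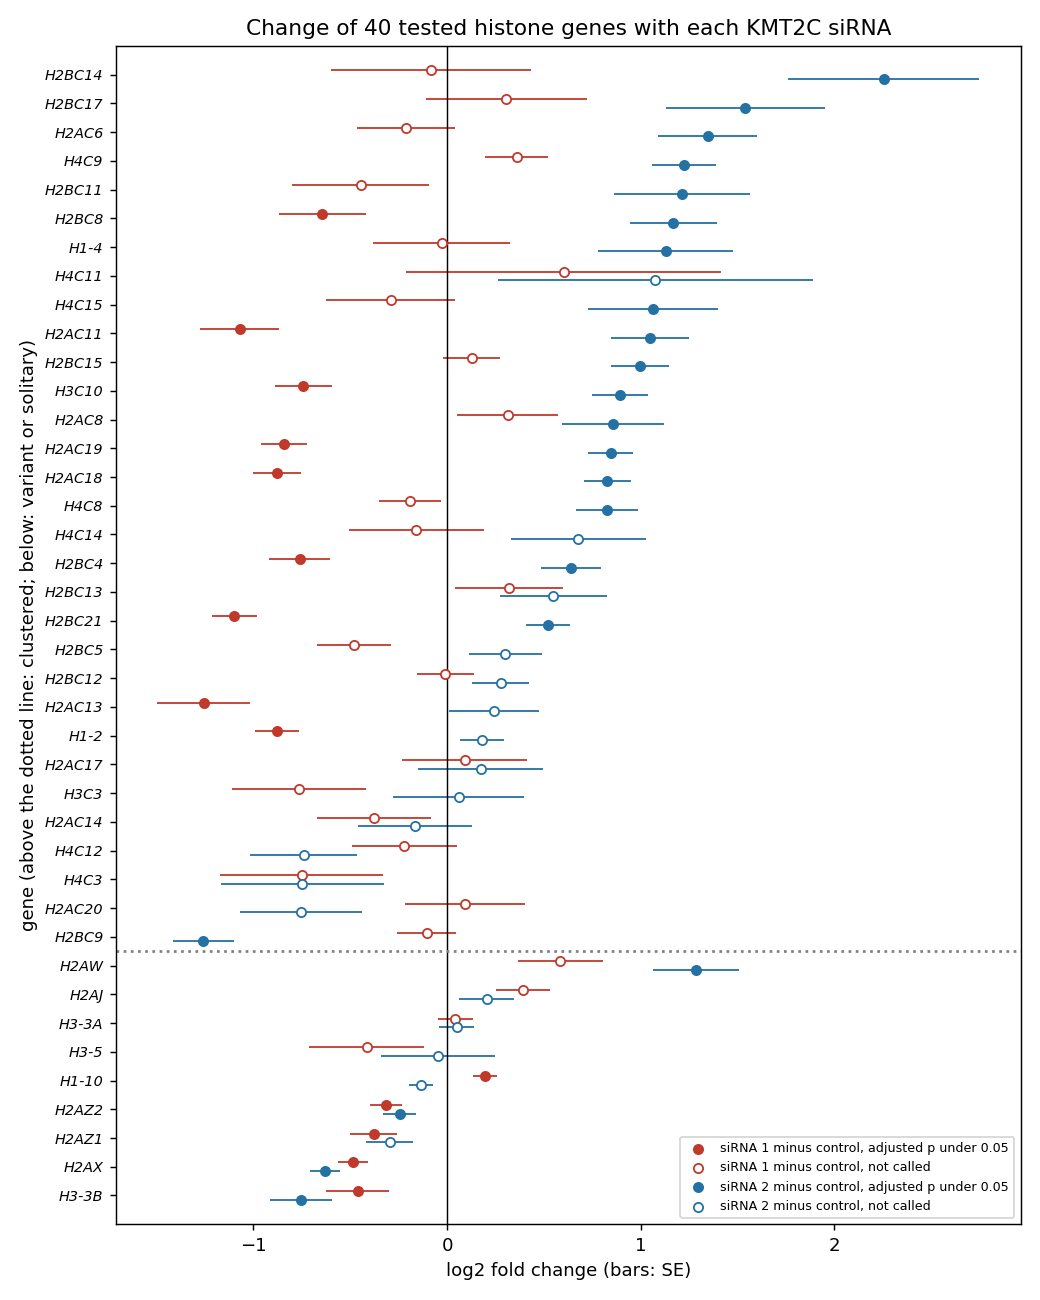
Log2 fold change against control (horizontal axis, bars: SE) of 40 tested histone genes with siRNA 1 (red) and siRNA 2 (blue); filled points passed adjusted p under 0.05. Above the dotted line are the 31 clustered genes, of which 9 fell with siRNA 1 and 17 rose with siRNA 2, and below it 9 variant or solitary genes.

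Among the core H2A genes, the neighbouring copies H2AC18 (chr1:149842188-149842736, minus strand) and H2AC19 (chr1:149851061-149851624, plus strand) moved in opposite directions with the 2 siRNAs. H2AC18 had 5.13, 5.48 and 5.28 FPKM with siRNA 1, 19.7, 16.8 and 16.5 FPKM with siRNA 2, and 10.6, 9.41 and 8.77 FPKM in control cells. Its log2 fold change was -0.88 ± 0.12 (adjusted p = 6.64e-04) with siRNA 1 and 0.83 ± 0.12 (adjusted p = 5.84e-04) with siRNA 2, and no groups overlapped. H2AC19 had 5.12, 5.37 and 5.41 FPKM with siRNA 1, 19.2, 16.7 and 16.4 FPKM with siRNA 2, and 10.2, 9.21 and 8.60 FPKM in control cells, with -0.84 ± 0.12 (adjusted p = 6.54e-04) for siRNA 1 and 0.85 ± 0.12 (adjusted p = 3.88e-04) for siRNA 2. All of the 50-base windows of the H2AC18 transcript and 97.1% of those of H2AC19 also occur in another annotated gene, so how the authors divided reads between these copies is uncertain and they are best read as 1 measurement. The stem-loop window printed above for H2AC18 is the same, letter for letter, in H2AC19.

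H2AC11, another core H2A gene (chr6:27133042-27135291), shares only 4.13% of its windows with other genes. It passed the filter only with the siRNA 2 libraries counted. It had 0.519, 0.470 and 0.634 FPKM with siRNA 1, 2.13, 2.31 and 2.81 FPKM with siRNA 2, and 1.40, 1.01 and 0.958 FPKM in control cells. The log2 fold change was -1.07 ± 0.21 (adjusted p = 0.00342) with siRNA 1 and 1.05 ± 0.20 (adjusted p = 0.00258) with siRNA 2, and the groups did not overlap. H2AC13 had 1.40, 1.40 and 2.04 FPKM with siRNA 1, 4.94, 3.92 and 5.24 FPKM with siRNA 2, and 3.24, 4.57 and 3.63 FPKM in control cells. It fell with siRNA 1 (-1.26 ± 0.24, adjusted p = 0.00322) and had 0.24 ± 0.23 (adjusted p = 0.423) with siRNA 2, where the libraries overlapped those of control. Since 62.3% of its windows also occur in H2AC14, which was called in no comparison, how reads were divided between them is uncertain. H2AC6, at chr6:26124145-26139116, had 4.81, 3.82 and 4.40 FPKM with siRNA 1, 10.9, 18.7 and 9.76 FPKM with siRNA 2, and 5.71, 5.30 and 3.83 FPKM in control cells. It rose with siRNA 2 (1.35 ± 0.26, adjusted p = 0.00238), in which replicate 2 was highest, and had -0.21 ± 0.25 (adjusted p = 0.542) with siRNA 1. H2AC8 rose with siRNA 2 (0.86 ± 0.26, adjusted p = 0.0240), and this call was lost without siRNA 2 replicate 3 (adjusted p = 0.0819) or control replicate 1 (0.0787) or 2 (0.0558). H2AC14, H2AC17 and H2AC20 passed the test in no comparison.

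Core H2B genes had 7 rises and 1 fall with siRNA 2 and 3 falls with siRNA 1 among 11 tested. Of all tested genes 24.4% rose with siRNA 2 and 20.5% fell with siRNA 1, so the falls were near the background. The rises include H2BC14 and H2BC15, tested through the siRNA 2 group only. They also include H2BC8 and H2BC17, which passed the filter only with the siRNA 2 libraries counted. H2BC21 (chr1:149884459-149886652), in the chromosome 1 cluster, had 1.11, 1.07 and 0.966 FPKM with siRNA 1, 3.33, 3.22 and 3.34 FPKM with siRNA 2, and 2.29, 2.26 and 2.08 FPKM in control cells. Its log2 fold change was -1.10 ± 0.12 (adjusted p = 1.64e-04) with siRNA 1 and 0.52 ± 0.11 (adjusted p = 0.00511) with siRNA 2. The libraries of a group lay close together and no groups overlapped. H2BC4 (chr6:26114873-26123926) had 1.66, 1.59 and 1.56 FPKM with siRNA 1, 4.20, 5.07 and 3.84 FPKM with siRNA 2, and 2.83, 2.46 and 2.80 FPKM in control cells, with -0.76 ± 0.16 (adjusted p = 0.00503) for siRNA 1 and 0.64 ± 0.16 (adjusted p = 0.00855) for siRNA 2. The siRNA 1 libraries were lowest and the siRNA 2 libraries highest, without overlap, in both H2BC4 and H2BC8. H2BC8 had 0.732, 0.859 and 0.754 FPKM with siRNA 1, 2.71, 2.73 and 3.03 FPKM with siRNA 2, and 1.00, 1.64 and 0.966 FPKM in control cells. It passed the filter only with the siRNA 2 libraries counted. It rose with siRNA 2 (1.17 ± 0.22, adjusted p = 0.00253), and its fall with siRNA 1 (-0.64 ± 0.23, adjusted p = 0.0487) was lost in 14 of 19 alternative settings, among them leaving out any siRNA 1 library (adjusted p = 0.0722 to 0.113), any siRNA 2 library (0.0677 to 0.0705) or control replicate 2 (0.143).

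H2BC14 and H2BC15 were low and reached 1 FPKM in the siRNA 2 group only, so that they were tested because they were high there, and their values are a description of that. H2BC14 had 0.197, 0.406 and 0.533 FPKM with siRNA 1, 2.21, 2.18 and 1.52 FPKM with siRNA 2, and 0.171, 0.663 and 0.308 FPKM in control cells, a log2 fold change of 2.26 ± 0.50 (adjusted p = 0.00517) with siRNA 2 and -0.08 ± 0.52 (adjusted p = 0.914) with siRNA 1. H2BC15 had 0.995, 0.788 and 0.847 FPKM with siRNA 1, 1.47, 1.84 and 1.64 FPKM with siRNA 2, and 0.860, 0.823 and 0.690 FPKM in control cells, with 1.00 ± 0.15 (adjusted p = 6.41e-04) for siRNA 2 and 0.13 ± 0.15 (adjusted p = 0.529) for siRNA 1. In both, each siRNA 2 library lay above all others. Exons of H2BC15 overlap H2AC15 and H2AC16, and the labels do not say whether counting used the strand. H2BC11 and H2BC17 rose with siRNA 2, by 1.22 ± 0.35 (adjusted p = 0.0191) and 1.54 ± 0.41 (adjusted p = 0.0132). H2BC17 passed the filter only with the siRNA 2 libraries counted. The call of H2BC11 was lost without siRNA 2 replicate 3 (adjusted p = 0.0524) or control replicate 1 (0.0558).

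H2BC9 (chr6:26251651-26253710) went the other way. It had 3.29, 2.85 and 2.95 FPKM with siRNA 1, 1.37, 1.43 and 1.37 FPKM with siRNA 2, and 3.72, 2.54 and 3.37 FPKM in control cells. The siRNA 2 libraries lay below all others, with a log2 fold change of -1.26 ± 0.16 (adjusted p = 2.17e-04), while siRNA 1 and control libraries overlapped (-0.11 ± 0.15, adjusted p = 0.617). H2BC12, the most abundant core histone gene of the clusters, had 39.9 ± 8.51 FPKM with siRNA 1, 49.6 ± 1.66 FPKM with siRNA 2 and 39.4 ± 3.05 FPKM in control cells (SD, n = 3) and was called in no comparison, and 74.1% of its windows also occur in other annotated genes. H2BC5 differed between the siRNAs (-0.78 ± 0.19, adjusted p = 0.0116, siRNA 1 minus siRNA 2) but was called in neither comparison with control, and H2BC13 was called in none.

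**Figure D3:**
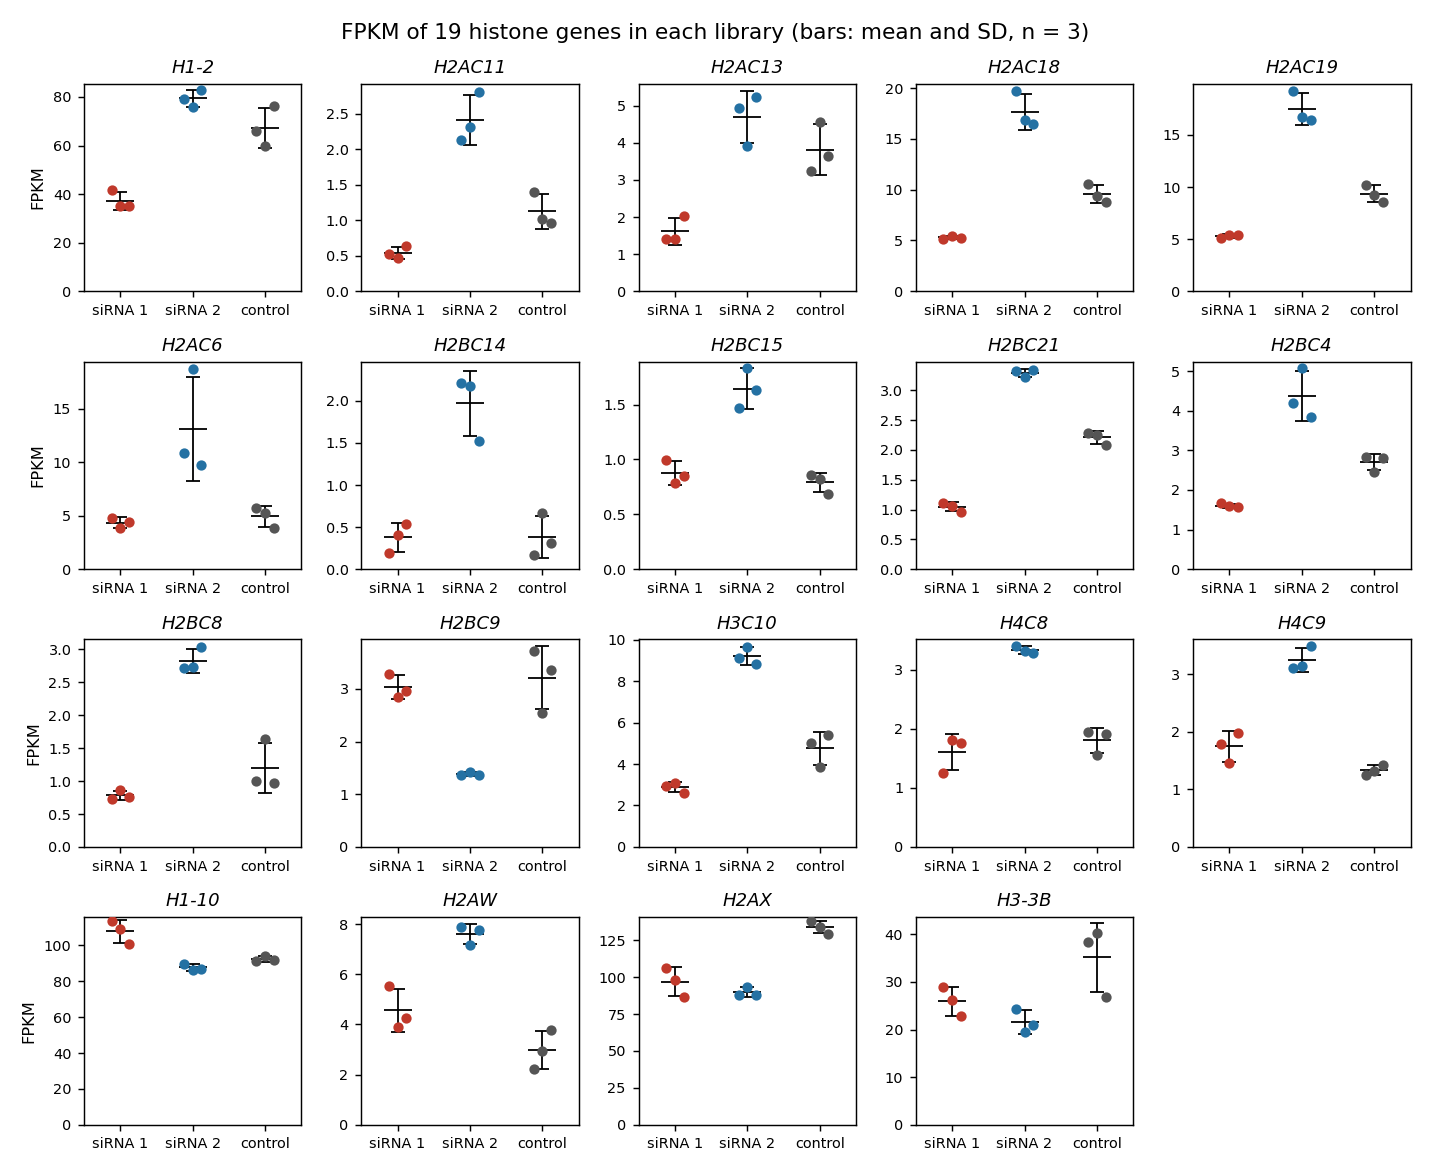
FPKM per library (vertical axes) of 19 of the 20 histone genes with the smallest adjusted p in any of the 3 comparisons, with siRNA 1, siRNA 2 and control from left to right. Points are libraries and black bars the mean and SD of 3 libraries; H2BC9 is lowest with siRNA 2 at 1.39 FPKM, while H3C10 is highest there at 9.20 FPKM.

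H1-2, the most abundant clustered gene (chr6:26055740-26056470), had 41.6, 35.0 and 35.1 FPKM with siRNA 1, 79.3, 75.8 and 83.0 FPKM with siRNA 2, and 66.0, 59.7 and 76.2 FPKM in control cells. It fell with siRNA 1 (-0.88 ± 0.11, adjusted p = 4.62e-04), where all libraries lay below the others, and had 0.18 ± 0.11 (adjusted p = 0.213) with siRNA 2. Between the siRNAs its log2 difference was -1.06 ± 0.11 (adjusted p = 1.57e-04). H1-4, another linker gene of low level that was tested through the siRNA 2 group only, was called higher with siRNA 2 (1.13 ± 0.35, adjusted p = 0.0253), and that call was lost without siRNA 2 replicate 2 (adjusted p = 0.0561) or 3 (0.0717) or control replicate 1 (0.0776) or 3 (0.0822). H1-1, H1-3, H1-5 and H1-6 were under the filter.

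H3C10 (chr6:27810064-27811300) was the highest of the clustered H3 genes, and none of its windows occur in another annotated gene. It had 2.96, 3.10 and 2.61 FPKM with siRNA 1, 9.11, 9.66 and 8.82 FPKM with siRNA 2, and 5.01, 3.87 and 5.40 FPKM in control cells. It fell with siRNA 1 (-0.74 ± 0.15, adjusted p = 0.00380) and rose with siRNA 2 (0.89 ± 0.14, adjusted p = 0.00101), and no groups overlapped. H3C3, the other clustered H3 gene tested, was called in no comparison, and 11 of the 13 clustered H3 genes were under the filter.

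Of the 7 tested clustered H4 genes, 3 rose with siRNA 2 (24.4% of all tested genes did). With siRNA 1 edgeR called none of the 7, where 41.7% of all tested genes were called. At an unadjusted p under 0.05 in edgeR there were 0, and the share of all tested genes at that threshold was not counted. DESeq2 called 0 of the 7, where it called 2836 of all 12830 tested genes higher and 2975 lower. H4C8 had 1.25, 1.81 and 1.75 FPKM with siRNA 1, 3.40, 3.31 and 3.28 FPKM with siRNA 2, and 1.95, 1.56 and 1.91 FPKM in control cells, with 0.83 ± 0.16 (adjusted p = 0.00275) for siRNA 2 and -0.19 ± 0.16 (adjusted p = 0.377) for siRNA 1. H4C9 had 1.79, 1.46 and 1.99 FPKM with siRNA 1, 3.11, 3.14 and 3.49 FPKM with siRNA 2, and 1.25, 1.32 and 1.42 FPKM in control cells, with 1.22 ± 0.17 (adjusted p = 3.53e-04) for siRNA 2 and 0.36 ± 0.16 (adjusted p = 0.113) for siRNA 1. In both genes each siRNA 2 library lay above all others. H4C15 rose with siRNA 2 (1.07 ± 0.34, adjusted p = 0.0273), but 95.1% of its windows also occur in another gene, and the call was lost without siRNA 2 replicate 1 (adjusted p = 0.0538), 2 (0.0595) or 3 (0.066). H4C11 and H4C12, which share most of their windows, were uneven within groups. H4C11 had 4.94, 0.215 and 1.76 FPKM in the control libraries, in which H4C12 had 6.98, 9.20 and 4.82 FPKM, so that control replicate 2 was lowest in the first gene and highest in the second. H4C3, H4C11, H4C12 and H4C14 were called in no comparison.

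Of the 10 tested variant or solitary genes, 5 fell and 1 rose with siRNA 1, and 4 fell and 1 rose with siRNA 2. Of all tested genes 41.7% were called with siRNA 1 and 49.3% with siRNA 2, so the share called in either direction with siRNA 2 was that of the background. By direction, 20.5% of all tested genes fell and 21.2% rose with siRNA 1, and 24.9% fell and 24.4% rose with siRNA 2. H2AX, the H2A variant that is phosphorylated at DNA breaks (chr11:119093854-119095467), had 106, 98.1 and 86.8 FPKM with siRNA 1, 88.1, 93.5 and 87.9 FPKM with siRNA 2, and 138, 134 and 129.5 FPKM in control cells. The log2 fold change was -0.49 ± 0.08 (adjusted p = 0.00133) for siRNA 1 and -0.63 ± 0.08 (adjusted p = 2.14e-04) for siRNA 2, and the control libraries lay above all others.

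The genes of the replacement H3, H3-3A and H3-3B, encode the same protein. H3-3A had 58.5, 50.7 and 50.5 FPKM with siRNA 1, 51.8, 58.6 and 53.9 FPKM with siRNA 2, and 47.6, 55.0 and 49.97 FPKM in control cells, with 0.04 ± 0.09 (adjusted p = 0.745) and 0.05 ± 0.09 (adjusted p = 0.675) for siRNA 1 and siRNA 2. H3-3B had 28.9, 26.1 and 22.8 FPKM with siRNA 1, 24.4, 19.5 and 21.01 FPKM with siRNA 2, and 38.5, 40.2 and 26.9 FPKM in control cells. It fell with siRNA 2 (-0.75 ± 0.16, adjusted p = 0.00462). Its fall with siRNA 1 (-0.46 ± 0.16, adjusted p = 0.0480) was lost in 12 of 19 alternative settings, including without siRNA 1 replicate 2 (adjusted p = 0.102) or 3 (0.137), without any siRNA 2 library (0.0517 to 0.0661) or without control replicate 1 (0.129) or 2 (0.151). Control replicate 3 lay among the siRNA 1 libraries of H3-3B, while the groups of H3-3A overlapped throughout. Exons of H3-3B overlap the gene UNK. The difference between H3-3A and H3-3B in response was not tested.

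The H2A.Z genes, whose products sit beside active promoters, were among the most abundant. H2AZ1 had 66.1, 72.1 and 77.8 FPKM with siRNA 1, 82.5, 77.6 and 73.2 FPKM with siRNA 2, and 77.9, 108 and 89.7 FPKM in control cells, with -0.38 ± 0.12 (adjusted p = 0.0349) for siRNA 1 and -0.30 ± 0.12 (adjusted p = 0.0722) for siRNA 2. The siRNA 1 call was lost in 9 of 19 alternative settings, including without siRNA 1 replicate 1 (adjusted p = 0.0972) or 2 (0.0819), siRNA 2 replicate 2 (0.0512) or control replicate 2 (0.0984) or 3 (0.0706). In both H2A.Z genes every siRNA 1 library lay below every control library, and siRNA 2 libraries overlapped control. H2AZ2 had 42.8, 41.1 and 41.5 FPKM with siRNA 1, 49.7, 44.0 and 40.8 FPKM with siRNA 2, and 52.7, 53.9 and 46.8 FPKM in control cells, with -0.31 ± 0.08 (adjusted p = 0.0162) for siRNA 1 and -0.25 ± 0.08 (adjusted p = 0.0376) for siRNA 2. Its siRNA 1 call was lost without siRNA 1 replicate 2 (adjusted p = 0.0508) or control replicate 2 (0.0575). Its siRNA 2 call was lost without siRNA 1 replicate 2 (adjusted p = 0.0508), siRNA 2 replicate 2 (0.105) or 3 (0.123) or control replicate 1 (0.0927) or 2 (0.12).

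H1-10, a linker variant, had 114, 109 and 100.7 FPKM with siRNA 1, 89.7, 86.4 and 86.9 FPKM with siRNA 2, and 91.5, 94.2 and 91.8 FPKM in control cells. It was the histone gene called higher with siRNA 1 (0.20 ± 0.06, adjusted p = 0.0322), a call that was lost without siRNA 1 replicate 1 (adjusted p = 0.0599) or 2 (0.0711) or any control library (0.0533 to 0.0988), and it had -0.13 ± 0.06 (adjusted p = 0.106) with siRNA 2. H2AW (chr1:228456979-228457873), an H2A gene that stands head to head with H2BU1 with 234 bases between their starts, is not a solitary gene although its name places it in this group. It had 5.54, 3.90 and 4.27 FPKM with siRNA 1, 7.88, 7.17 and 7.76 FPKM with siRNA 2, and 2.24, 2.95 and 3.77 FPKM in control cells. It rose with siRNA 2 (1.29 ± 0.22, adjusted p = 0.00144) and had 0.59 ± 0.22 (adjusted p = 0.0623) with siRNA 1. H2AJ, an H2A variant gene, had 38.0, 29.9 and 25.9 FPKM with siRNA 1, 28.9, 30.4 and 24.9 FPKM with siRNA 2, and 24.6, 23.8 and 21.9 FPKM in control cells, and was called in no comparison, with 0.39 ± 0.14 (adjusted p = 0.0527) for siRNA 1 and 0.20 ± 0.14 (adjusted p = 0.262) for siRNA 2. In H2AJ each siRNA 1 and siRNA 2 library lay above all control libraries. H3-5 was the remaining tested variant and was not called.

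Rises with siRNA 2 were found in each of the 3 chromosomal clusters, where 24.4% of all tested genes rose with siRNA 2 and 20.5% fell with siRNA 1. At chr1:149782689-149887965, 4 of 6 tested genes rose with siRNA 2 and 3 fell with siRNA 1, and H2AC18 and H2AC19 are counted here as separate genes. At chr6:25726063-26285638, 6 of 11 rose and 1 fell with siRNA 2, and 3 fell with siRNA 1. At chr6:27125897-27893891, 7 of 14 rose with siRNA 2 and 3 fell with siRNA 1. The falls in both chromosome 6 clusters were near the background. Among the 21 tested clustered genes with at most 50% of their windows in other genes, 14 rose and 1 fell with siRNA 2, and 6 fell and none rose with siRNA 1. Of the 10 tested genes with the stem-loop letters in their annotated end, 6 rose with siRNA 2 and 4 fell with siRNA 1, beside the same shares of all tested genes. The rises at chromosome 6 and among the 21 genes include H1-4, H2BC14 and H2BC15, tested through the siRNA 2 group only. They also include H2AC11, H2BC8 and H2BC17, which passed the filter only with the siRNA 2 libraries counted. H2BC15, whose stem-loop letters lie at the annotated end of H2AC16, is among the stem-loop genes that rose.

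Many H2A and H2B genes stand head to head and share the sequence between their starts. With starts at most 400 bases apart, 12 pairs of histone genes in this orientation were found, and in 7 both genes were tested. H2BC17 was counted with H2AC17 and again with H3C12, and exons of H2AC17 and H3C12 overlap. Pairs with overlapping spans, such as H2AC15 and H2BC15, were not counted. H2BC4 and H2AC6, with 219 bases between their starts, H2BC8 and H2AC8 (283 bases) and H2BC11 and H2AC11 (292 bases) each had both genes higher with siRNA 2. H2BC21 rose with siRNA 2 while its partner H2AC20, 266 bases away, had -0.75 ± 0.31 (adjusted p = 0.0765). H2BC14 and H2BC17 were called higher, while their H2A partners H2AC14 and H2AC17 were not called, and neither H2BC13 nor H2AC13 was called with siRNA 2. Of all tested genes 24.4% rose with siRNA 2, and the share of other gene pairs with both genes higher was not counted. The calls of H2AC8 and H2BC11 were lost when certain single libraries were left out. H2AC11, H2BC8, H2BC14 and H2BC17 passed the filter only with the siRNA 2 libraries counted. Differences within pairs were not tested.

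Promoters are shown for H2AC18 and H3C10, which moved in opposite directions with the 2 siRNAs, and for H2BC4, which stands head to head with H2AC6. The sequences are from RefSeq on GRCh38.p14 and run from 250 bases before to 50 bases after the start; 77 of the 91 genes matched by symbol. Capitals mark CCAAT, the octamer ATTTGCAT bound by POU factors, and TATAAA, or their reverse complements, searched on both strands and overlapping where letters are shared. H2AC18 is at chr1:149842701-149843000, minus strand, H2BC4 at chr6:26123877-26124176, minus strand, and H3C10 at chr6:27809801-27810100, plus strand.
H2AC18: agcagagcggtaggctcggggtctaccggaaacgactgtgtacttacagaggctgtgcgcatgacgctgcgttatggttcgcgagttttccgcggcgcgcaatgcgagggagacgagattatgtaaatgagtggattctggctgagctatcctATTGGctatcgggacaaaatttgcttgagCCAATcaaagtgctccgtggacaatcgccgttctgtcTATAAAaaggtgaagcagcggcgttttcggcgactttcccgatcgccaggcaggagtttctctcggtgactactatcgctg
H2BC4: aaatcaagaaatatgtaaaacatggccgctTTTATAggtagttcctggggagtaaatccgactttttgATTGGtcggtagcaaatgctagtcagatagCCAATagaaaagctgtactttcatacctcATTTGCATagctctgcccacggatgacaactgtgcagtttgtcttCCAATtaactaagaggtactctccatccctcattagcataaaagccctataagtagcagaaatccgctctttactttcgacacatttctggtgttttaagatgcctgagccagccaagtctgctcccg
H3C10: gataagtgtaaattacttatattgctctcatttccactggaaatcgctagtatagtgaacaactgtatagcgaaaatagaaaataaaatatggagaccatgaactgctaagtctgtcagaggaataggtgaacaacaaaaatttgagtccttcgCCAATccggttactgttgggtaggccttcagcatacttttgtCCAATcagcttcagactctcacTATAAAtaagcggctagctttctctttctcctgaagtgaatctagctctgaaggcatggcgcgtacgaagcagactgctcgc

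CCAAT occurred in 87.0% of the 77 histone promoters and in 34.6% of all 35116 promoters of the same length. It was in every window of the clustered H1, H2A, H2B and H3 genes and in 3 of those of the 12 clustered H4 genes. The octamer occurred in 82.4% of 17 clustered H2B windows, 73.3% of 15 clustered H2A windows and 1.77% of all promoters. TATAAA occurred in 67.2% of the 61 clustered windows, 37.5% of the 16 variant or solitary windows and 11.5% of all promoters. These counts include sites of a partner gene. The reverse complement of TATAAA marked in the H2BC4 window is the TATAAA of the H2AC6 window. A match is a description of the letters and does not show that a factor binds.

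Genes that act with histones were examined as lists. Among 43 tested S phase and DNA replication genes, 12 rose and 1 fell with siRNA 1 (all tested genes: 21.2% and 20.5%), while 2 rose and 17 fell with siRNA 2 (24.4% and 24.9%). In the direct comparison 27 of the 43 were higher and 3 lower with siRNA 1 than with siRNA 2 (all tested genes: 20.6% and 18.9%), with a median log2 difference of 0.40. TYMS, thymidylate synthase, had 28.3, 26.1 and 25.2 FPKM with siRNA 1, 14.96, 14.5 and 13.5 FPKM with siRNA 2, and 16.5, 17.1 and 13.9 FPKM in control cells, and rose with siRNA 1 (0.72 ± 0.09, adjusted p = 4.53e-04). The cell cycle transcription factor gene E2F2 had 7.17, 7.35 and 7.62 FPKM with siRNA 1, 3.69, 3.91 and 3.24 FPKM with siRNA 2, and 7.41, 7.25 and 7.33 FPKM in control cells, and fell with siRNA 2 (-1.08 ± 0.08, adjusted p = 1.07e-05). E2F1, its relative, and MCM5, a helicase subunit gene, also fell with siRNA 2, by 0.44 and 0.48 on the log2 scale. The median log2 difference of the 31 tested clustered histone genes was -1.02, on the other side from this list. Those 31 include genes that passed the filter only with the siRNA 2 libraries counted, and no median without them was made. The part of S phase in the histone values was not tested.

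Of 29 tested genes of histone pre-mRNA expression and 3′ processing, 8 rose and 3 fell with siRNA 1, where 21.2% of all tested genes rose and 20.5% fell. With siRNA 2, 7 rose and 8 fell, near the 24.4% and 24.9% of all tested genes, and the medians were 0.00 and -0.07. CCNE2, a cyclin E that promotes S phase entry, had 13.3, 11.9 and 12.3 FPKM with siRNA 1, 7.38, 7.33 and 6.50 FPKM with siRNA 2, and 13.5, 13.9 and 11.7 FPKM in control cells, and fell with siRNA 2 (-0.94 ± 0.09, adjusted p = 5.54e-05). ERI1, an exonuclease that trims the histone mRNA end, fell with siRNA 1 (-0.54 ± 0.10, adjusted p = 0.00291) and siRNA 2 (-1.005 ± 0.10, adjusted p = 6.35e-05). ZNF473, a zinc finger protein of the histone processing complex, rose with siRNA 1 (0.79 ± 0.09, adjusted p = 2.40e-04) and siRNA 2 (0.68 ± 0.09, adjusted p = 3.24e-04). SYMPK, the scaffold protein symplekin, rose by 0.50 ± 0.06 with siRNA 1 and 0.48 ± 0.06 with siRNA 2 on the log2 scale.

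Of 36 tested histone chaperone genes, which escort histones to and from DNA, 8 rose and 4 fell with siRNA 1, beside 21.2% and 20.5% of all tested genes. With siRNA 2, 12 rose and 9 fell, beside 24.4% and 24.9%, so the rises with siRNA 1 and the falls with siRNA 2 were near the background. SUPT16H, a subunit of the FACT complex, had 40.6, 35.1 and 38.8 FPKM with siRNA 1, 34.0, 32.9 and 33.6 FPKM with siRNA 2, and 23.2, 22.8 and 22.01 FPKM in control cells, and rose with siRNA 1 (0.73 ± 0.07, adjusted p = 7.97e-05) and siRNA 2 (0.51 ± 0.07, adjusted p = 2.84e-04). SUPT6H, a transcription elongation factor, fell by 0.50 with siRNA 1 and 0.42 with siRNA 2 on the log2 scale. CHAF1B, a subunit of the replication-coupled assembly factor CAF-1, fell with siRNA 2 (-0.47 ± 0.07, adjusted p = 5.86e-04) and had 0.17 ± 0.07 (adjusted p = 0.0802) with siRNA 1. NUCKS1, a chromatin protein, rose with siRNA 2 (0.39 ± 0.06, adjusted p = 8.34e-04). Among histone variant genes outside the naming rule, MACROH2A2, which encodes a large H2A variant, had 24.7, 20.9 and 18.1 FPKM with siRNA 1, 21.6, 20.01 and 20.4 FPKM with siRNA 2, and 10.9, 9.20 and 9.73 FPKM in control cells. It rose with siRNA 1 (1.08 ± 0.12, adjusted p = 2.16e-04) and siRNA 2 (1.00 ± 0.12, adjusted p = 1.79e-04). CENPA, the centromeric H3 variant, rose with siRNA 2 (0.48 ± 0.13, adjusted p = 0.0142), and MACROH2A1 was called in no comparison.

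**Figure D4:**
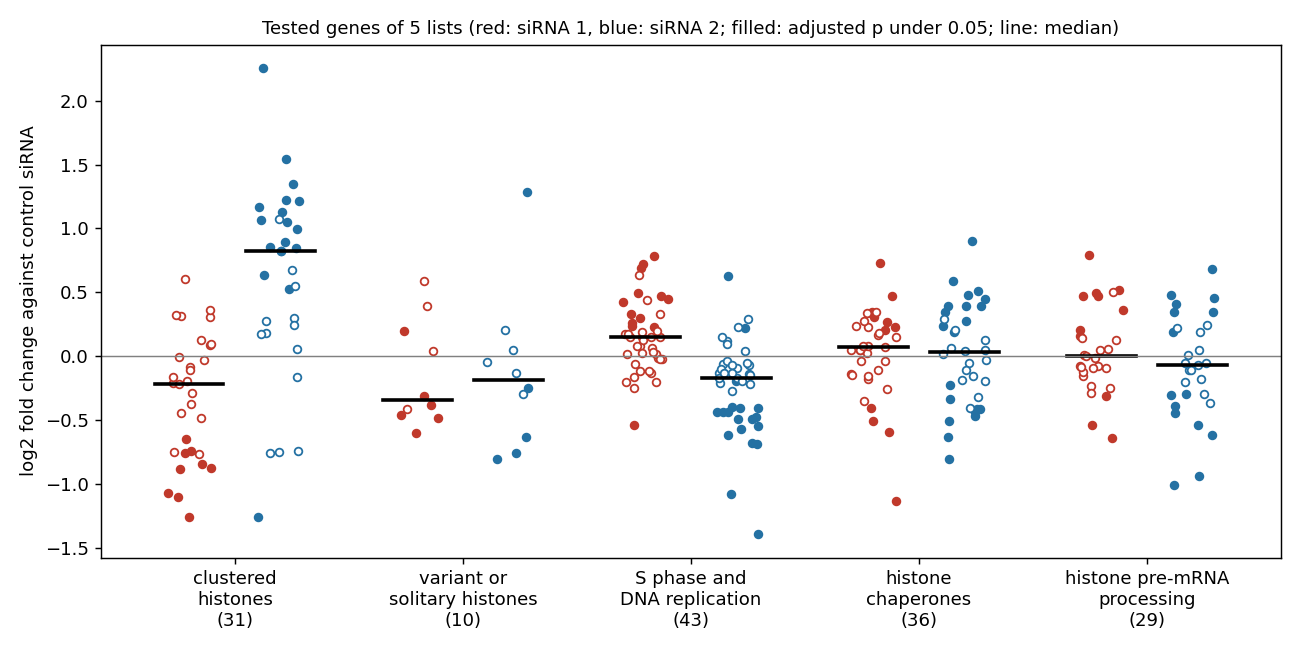
Log2 fold change against control (vertical axis) of the tested genes of 5 lists with siRNA 1 (red) and siRNA 2 (blue); filled points passed adjusted p under 0.05 and lines are medians, with the number of genes in brackets. The median of clustered histone genes was -0.22 with siRNA 1 and 0.83 with siRNA 2, and that of S phase and DNA replication genes 0.15 and -0.17.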

How the data were processed

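RNA sequencing values of 9 VCaP libraries were read from the single deposited file, in which the count columns hold expected counts, deposited by the authors as whole numbers without normalization; they were rounded, which changed no value. Of the count values, 11286 equal 4 and 2524 equal 5, so 1 sequenced fragment may be worth more than 1 count, and a fit on counts divided by 4 was run as an alternative. FPKM values were calculated by the authors, per the file headers. Bowtie 0.12.2 and the builds mm8 and hg38 are named without a role, per the submitters' processing notes; the sources used here do not name the counting tool. Of the 91 histone genes, 89 overlap the gene of the same identifier in GENCODE release 29, so coordinates are given on GRCh38.

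The test was edgeR 4.0.16 (R 4.3.3, limma 3.58.1, DESeq2 1.42.0), a 2-sided quasi-likelihood F test after TMM scaling, with the 3 group means estimated together from the 9 libraries (common dispersion 0.0437). The SE is the size of the log2 fold change over the square root of F. Named genes were those called in any comparison, with values per library for the 20 of smallest adjusted p, the 5 of highest level and 8 variants, and up to 4 per list by smallest adjusted p. Copies were compared by 50-base windows of the longest coding transcript in GENCODE. The members and lists were chosen with earlier results of these data known. One tested gene is counted but its own values are not reported here. The code was tested on simulated data. Alternatives were other scalings, filters and tests, a replicate block, and leaving out each library.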

Additional observations from a re-analysis of the deposited data

Results flagged for a closer look

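The effects of the KMT2C siRNAs differed in 22 histone genes by the direct test of siRNA 1 against siRNA 2, with adjusted p under 0.05 in edgeR's quasi-likelihood test. That is 22 of 41 tested, where 39.5% of all tested genes differed. Among the 22, H1-4, H2BC14 and H2BC15 were tested through the siRNA 2 group only. H2AC11, H2BC8 and H2BC17 passed the filter only with the siRNA 2 libraries counted. Among H2A genes the log2 differences, siRNA 1 minus siRNA 2, were -1.56 for H2AC6, -2.12 for H2AC11, -1.50 for H2AC13, -1.71 for H2AC18, -1.69 for H2AC19 and -0.70 for H2AW. In H2B genes they were -1.40 for H2BC4, -0.78 for H2BC5, -1.81 for H2BC8, -1.66 for H2BC11, -2.34 for H2BC14, -0.87 for H2BC15, -1.24 for H2BC17 and -1.62 for H2BC21. Linker, H3 and H4 genes had -1.06 for H1-2, -1.16 for H1-4, -1.64 for H3C10, -1.02 for H4C8, -0.86 for H4C9 and -1.36 for H4C15. The values were positive in H2BC9 (1.15) and H1-10 (0.33).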

How the results depend on the processing

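Of 2328 values recomputed for single histone genes and comparisons, 2199 kept their direction of call and side of the threshold, 91 calls were lost, 38 values became calls, and no called value changed sign. All settings kept 10 of 15 calls with siRNA 1, 18 of 23 with siRNA 2 and 19 of 22 between the siRNAs; the others are those of H1-4, H1-10, H2AC8, H2AW, H2AZ1, H2AZ2, H2BC8, H2BC11, H2BC17, H3-3B and H4C15. Between the siRNAs, H2AW lost its call without siRNA 1 replicate 2 or 3 or any siRNA 2 library (adjusted p = 0.0599 to 0.1), H2BC17 without siRNA 1 replicate 1 or 3, any siRNA 2 library or control replicate 1 or 3 (0.0504 to 0.0892), and H1-4 without siRNA 1 replicate 1 or 3 or siRNA 2 replicate 2 or 3 (0.0638 to 0.0862). The 1 histone gene higher with siRNA 1 became 3 genes under upper-quartile scaling, DESeq2, limma on log2(FPKM + 1) and limma on log2(FPKM + 0.1), and 0 without a filter on low values or with only the 2 groups compared, and the cause was not tested. Leaving out 1 library gave 0 to 2 genes higher and 10 to 14 lower with siRNA 1, 14 to 19 higher and 4 to 7 lower with siRNA 2, and 2 to 4 higher and 17 to 20 lower between the siRNAs. Same-numbered libraries of different groups did not deviate together (correlations of -0.069 to 0.039, against -0.083 to 0.091 between different numbers). With the replicate block, 1 gene was higher and 13 lower with siRNA 1, 18 higher and 5 lower with siRNA 2, and 2 higher and 19 lower between the siRNAs. Upper-quartile scaling moved the median of all tested genes to 0.06 with siRNA 1 and 0.12 with siRNA 2, against 0.01 and 0.02 with TMM, and the share of higher calls with siRNA 2 to 59.4% against 49.4%. Without a filter, which also raised the number of genes tested from 12830 to 33869, 16 histone genes were higher with siRNA 2.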
